A study of Mus musculus with 50 samples.

Results

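The terminal end bud (TEB) is the bulbous tip of the growing mammary duct, and TEBs of wild-type (WT) mice were compared between 6 weeks and 4 weeks of age. The samples were chosen by their titles, 3 WT TEB arrays at 6 weeks and 3 at 4 weeks, 6 of the 50 arrays in the series. All mice had the CB6F1 background, and the WT animals carried no transgene. TEBs were cut by laser capture microdissection from stained frozen sections of mammary glands, so that each array holds a captured structure with all of its cell layers and any stroma taken with it, and RNA was hybridised to the Affymetrix Mouse Gene 1.0 ST array. The mice of an age were littermates according to the study's methods, so that litter and age cannot be told apart. The labels call the arrays of a group biological replicates. For reference, the WT duct behind the TEB was measured at the same ages, with 3 arrays at 4 weeks and 3 at 6 weeks. TEBs of DN-Clim mice, also of the CB6F1 background, were measured with 3 arrays at 4 weeks and 2 at 6 weeks. These mice carry a dominant-negative form of Clim, a cofactor of LIM domain transcription factors, under the Keratin 14 (K14) promoter, which is active in basal cells. The series asks how the expression programme of the TEB and duct changes while the gland branches.

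During puberty the TEB drives the duct through the fat pad. Its outer layer of cap cells gives rise to basal myoepithelial cells, which are contractile and express smooth muscle genes and Keratins 5 and 14, while the inner body cells give rise to the luminal lining. TEBs are known for intense proliferation, and they disappear once the ducts reach the end of the fat pad.

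Intensity, the deposited measure of a probe set on a linear scale, was taken to log2, and a change is given as a log2 difference of 6 weeks minus 4 weeks with its standard error (SE) and the adjusted p of limma. Each gene is represented by 1 probe set. Epithelial markers were high on all 6 arrays. The intensity of Krt18, a luminal keratin, lay between 5978 and 7688, and that of Acta2, the smooth muscle actin of basal cells, between 6413 and 8538, with the 2 ages overlapping for both genes. WT TEB 6 weeks replicate 1 stood apart from the rest of the arrays. Its median intensity was 156, against 206 to 218 on the other 5 TEB arrays, 9.53% of its probe sets were below an intensity of 1, against at most 0.948%, and its median correlation with the other laser capture arrays was 0.774, against at least 0.925. The counts of genes called are therefore given with and without that array. The brightest values also differed between ages. The maximum intensity was 26174 to 26952 on the 4-week TEB arrays and 19145, 18544 and 26358 on the 6-week TEB arrays. On the WT duct arrays it was at least 26018 at 4 weeks and 18992 to 21025 at 6 weeks. At 8 and 10 weeks the WT TEB arrays reached 26069 to 27970, so that the low maximum was seen on most 6-week arrays only. This difference in scale cannot be told apart from age in the comparison, and its cause was not tested. Of the 13362 genes tested, 543 (4.06%) rose and 1523 (11.4%) fell from 4 to 6 weeks at an adjusted p under 0.05. Without WT TEB 6 weeks replicate 1, 810 genes (6.06%) rose and 1502 (11.2%) fell. In both fits 478 genes rose and 1242 fell. The shares over all genes are the reference for the counts of gene lists below. The excess of falling genes depended on the scaling of the arrays, since 26.3% of the called genes rose as deposited, 52.0% after quantile normalization and 52.3% when each array was scaled to 1 shared mean and variance. The median change of all genes was -0.15 as deposited, 0.03 after quantile normalization and 0.05 at a common mean and variance. No called gene changed sign under either scaling or without that array. The number of called genes fell from 2066 to 1034 without WT TEB 4 weeks replicate 1, to 886 without replicate 2 of that age and to 597 without replicate 3.

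The clearest change in the TEB was a fall of the genes of cell division. Of 51 mitosis genes tested, which encode the kinases, kinesins and kinetochore proteins that separate chromosomes, 47 fell and none rose, with a median change of -2.05, and all 51 had lower intensities on each 6-week array than on any 4-week array. Without WT TEB 6 weeks replicate 1, 49 fell, with a median of -1.98. Over all genes the median was -0.15, and 11.4% fell. Bulk samples of captured tissue were measured. Fewer dividing cells, less of these RNAs per cell and a difference in the tissue captured can therefore not be told apart. On the 6-week arrays the median of these genes lay at -2.08, -1.50 and -2.66 in the TEB. In the duct of that age it lay at -0.98, -0.83 and -2.08, all relative to the 4-week TEB. Bub1, a kinase of the spindle assembly checkpoint, had intensities of 1089, 959 and 1186 at 4 weeks and 141, 256 and 88.9 at 6 weeks. The lowest 4-week array thus exceeded the highest 6-week array more than the replicates of either age differed on this scale, and the change was -2.86 (SE 0.49, adjusted p = 0.00665). Pbk, a mitotic kinase, was at 623, 543 and 606 at 4 weeks and at 45.6, 112 and 47.5 at 6 weeks, a change of -3.24 (SE 0.43, adjusted p = 0.00291). In both genes replicate 2 was the highest of the 6-week arrays. Mki67, which encodes the proliferation marker Ki-67, was at 2837, 2476 and 2902 against 942, 1081 and 445, a change of -1.83 (SE 0.51, adjusted p = 0.0412). Here replicate 3 was the lowest array, and the ages did not overlap. Cdk1, the kinase that starts mitosis, fell by 2.25 (SE 0.36), and Plk1, a kinase of the spindle poles, by 2.02 (SE 0.36). Hmmr, Ttk, Kif14, Nuf2 and Ncapg, also mitotic genes, were among the 15 genes with the largest decreases, and Hmmr showed how far the doubtful array could move a value, since it was at 8.15 on that array and at 138 and 49.2 on the other 6-week arrays. Its change was -3.83 (SE 1.09, adjusted p = 0.0431) with that array and -2.71 (SE 0.79, adjusted p = 0.0435) without it. The count of mitosis genes that fell was 28 without WT TEB 4 weeks replicate 1, 28 without replicate 2 and 22 without replicate 3, and it was 12 when both replicate 1 and replicate 3 of 6 weeks were left out.

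**Figure D1:**
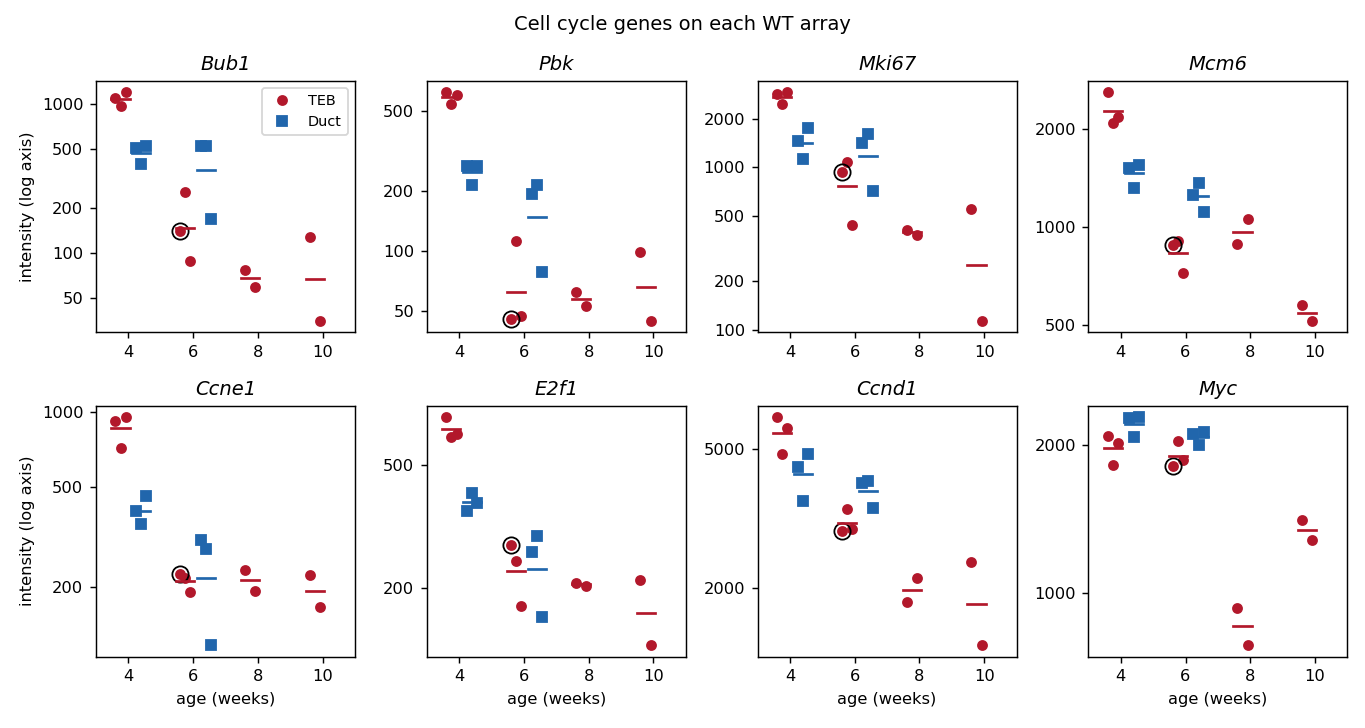
Intensity (log axis) of 8 cell cycle genes on each WT array against age in weeks, with TEB arrays as circles, duct arrays as squares and a horizontal line at each group's geometric mean; WT TEB 6 weeks replicate 1 is ringed. All genes but Myc lay lower in the 3 TEB arrays at 6 weeks than in the 3 at 4 weeks (Bub1 88.9 to 256 against 959 to 1186), while Myc overlapped (1814 to 2035 against 1819 to 2090.4). Duct arrays are drawn at 4 and 6 weeks only.

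Short elements known from the cell cycle were found in the start regions of a part of these genes. The 250 bases before the gene start, read from the RefSeq promoter table of build GRCm38.p6, were available for 43 of the 51 mitosis genes, and both strands were searched. The CCAAT box, bound by the factor NF-Y, was found in 31 of the 43 (72.1%), against 34.5% of all 27025 promoters in the table and 35.7% of those of the genes tested. The cell cycle homology region (CHR), searched as TTTGAA or TTCGAA and known as a site of the MuvB complexes, was found in 16 of the 43 (37.2%), against 17.4% and 12.3%. In the lists of clock and interferon genes treated below, the CCAAT box was found in 11 of 15 windows (73.3%) and 9 of 17 (52.9%). Its high share was thus not particular to the mitosis genes. The CHR was found there in 0 of 15 and 1 of 17 (5.88%). The letters of these elements do not contain one another, and a match describes the sequence and is not evidence of binding. The windows of Bub1, chr2:127831860-127832109 on the minus strand, and of Mki67, chr7:135716380-135716629 on the minus strand, are shown 5′ to 3′ because the genes carry the mitosis result. Capitals mark the CCAAT boxes on either strand in both genes and the CHR matches in Mki67. The Bub1 window held no CHR match.
Bub1: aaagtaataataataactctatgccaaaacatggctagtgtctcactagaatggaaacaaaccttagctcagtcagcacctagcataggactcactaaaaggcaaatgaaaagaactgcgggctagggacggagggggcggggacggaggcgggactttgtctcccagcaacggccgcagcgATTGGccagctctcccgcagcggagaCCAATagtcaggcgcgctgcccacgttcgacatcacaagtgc
Mki67: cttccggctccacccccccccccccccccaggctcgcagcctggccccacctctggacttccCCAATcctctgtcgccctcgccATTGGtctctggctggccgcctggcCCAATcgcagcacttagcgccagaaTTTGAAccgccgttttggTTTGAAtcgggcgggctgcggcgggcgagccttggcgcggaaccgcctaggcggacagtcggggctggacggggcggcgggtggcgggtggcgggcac

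Genes of DNA replication fell as well. Of 37 tested, 33 fell and none rose, with a median of -1.63, and without WT TEB 6 weeks replicate 1 all 37 fell, with a median of -1.47. The ages did not overlap for any of the 37. Mcm6, a subunit of the replicative helicase, was at 2581, 2084 and 2172 at 4 weeks and at 878, 904 and 725 at 6 weeks. The replicates of an age lay close together relative to the gap between ages, and the change of -1.45 had an SE of 0.12 (adjusted p = 0.000947). Prim1, a subunit of the primase that starts DNA strands, was at 625, 604 and 607 against 59, 198 and 88.4, a change of -2.60 (SE 0.40, adjusted p = 0.00448). Uhrf1, which carries DNA methylation through replication, fell by 2.97 (SE 0.54), Cdc6, which loads the helicase, by 2.35 (SE 0.50), and Pcna, the sliding clamp of the polymerases, by 1.21 (SE 0.18). Rrm2, a subunit of ribonucleotide reductase, was at 1647, 1446 and 1552 at 4 weeks and at 337 and 120.2 on the other 6-week arrays, but at 0.0268 on WT TEB 6 weeks replicate 1. Its change did not pass the test with that array (adjusted p = 0.0605) and passed without it (-2.94, SE 0.50, adjusted p = 0.00595).

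Of 19 regulators of the step from G1 into S phase, 15 fell and none rose, with a median of -0.86. Without WT TEB 6 weeks replicate 1, 16 fell. Ccne1, which encodes Cyclin E1, the partner of Cdk2 at that step, was at 927, 723 and 958 at 4 weeks and at 224, 218 and 189.8 at 6 weeks. All 3 arrays of 6 weeks agreed closely, and the change was -2.04 (SE 0.17, adjusted p = 0.000947). E2f1, a transcription factor that activates replication genes, was at 716, 618 and 630.4 against 276, 245 and 174, a change of -1.52 (SE 0.22, adjusted p = 0.00356). Ccnd1, which encodes Cyclin D1, fell by 0.86 (SE 0.19) and its kinase Cdk4 by 0.76 (SE 0.09). Myc, a growth-promoting transcription factor, did not pass the test. Its intensities were 2090.4, 1819 and 2021 at 4 weeks and 1814, 2035 and 1865 at 6 weeks, with a difference of -0.05 (SE 0.10, adjusted p = 0.735). An E2F element, searched as TTTNNCGC on both strands, was found in 8 of the 32 available promoter windows of replication genes (25%) and 6 of the 14 of the G1/S regulators (42.9%), against 4.39% of all promoters and 6.96% of those of the genes tested. A match was also found in 5 of 43 windows of the mitosis genes (11.6%) and 3 of 17 of the interferon genes (17.6%). In the clock list it was found in 1 of 15 (6.67%). The letters of this element contain neither of those above. The window of Mcm6, chr1:128359706-128359955 on the minus strand (RefSeq, GRCm38.p6), is shown with its E2F matches in capitals, of which the upstream pair overlap on opposite strands.
Mcm6: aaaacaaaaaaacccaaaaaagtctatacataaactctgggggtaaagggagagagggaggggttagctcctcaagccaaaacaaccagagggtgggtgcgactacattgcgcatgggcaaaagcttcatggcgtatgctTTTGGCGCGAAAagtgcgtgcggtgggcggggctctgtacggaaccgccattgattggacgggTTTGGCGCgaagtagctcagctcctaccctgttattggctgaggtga

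Among 16 genes of cell cycle inhibition and exit, 3 rose and 1 fell. Rb1, the retinoblastoma protein that restrains E2F factors, was at 947, 974 and 1127 at 4 weeks and at 1705, 1421 and 1904 at 6 weeks, a change of 0.72 (SE 0.12, adjusted p = 0.00653). Btg2, an antiproliferative gene, rose by 0.67 (SE 0.09), and Klf9, a Krüppel-like transcription factor, by 0.37 (SE 0.09). Cdkn1c, which encodes the inhibitor p57, fell by 0.50 (SE 0.12). The same number of these genes rose and fell without WT TEB 6 weeks replicate 1.

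Biosynthetic genes fell in part. Of 39 genes of ribosome biogenesis, 20 fell and none rose, with a median of -0.50, and 21 fell without WT TEB 6 weeks replicate 1. Dkc1, the enzyme that modifies ribosomal RNA, was at 937, 904 and 925 at 4 weeks and at 545, 590.0 and 478 at 6 weeks, a change of -0.78 (SE 0.13, adjusted p = 0.00595). The ages were well separated. Only 13 of the 39 fell after quantile normalization or at a common mean and variance, and 7 or 8 fell without 1 of the 4-week arrays. Of 19 genes of one-carbon metabolism and nucleotide synthesis, 10 fell and none rose, and 11 fell without WT TEB 6 weeks replicate 1. Psat1, an enzyme of serine synthesis, was at 1069.5, 858 and 1040.2 against 279, 395 and 312, a change of -1.60 (SE 0.18, adjusted p = 0.00183), and Mthfd2, a mitochondrial folate enzyme, fell by 1.53 (SE 0.15). The count was 5 without WT TEB 4 weeks replicate 1 or 2, 4 without replicate 3 and 6 at a common mean and variance. Of 22 genes of sterol and fatty acid synthesis, 9 fell and none rose, and 8 fell without WT TEB 6 weeks replicate 1. Idi1, of the isoprenoid pathway, was at 878, 984 and 1169.6 against 205, 302 and 362, a change of -1.83 (SE 0.22, adjusted p = 0.00219), and Sqle, squalene epoxidase, fell by 1.13 (SE 0.17). This count was 5 without WT TEB 4 weeks replicate 2 and 4 without replicate 3. Of 17 genes of glycolysis and hypoxia, 4 fell, also without WT TEB 6 weeks replicate 1, with Pgk1, a glycolytic kinase, at -1.16 (SE 0.17), and Ndrg1, a hypoxia-responsive gene, rose by 0.89 (SE 0.21).

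**Figure D2:**
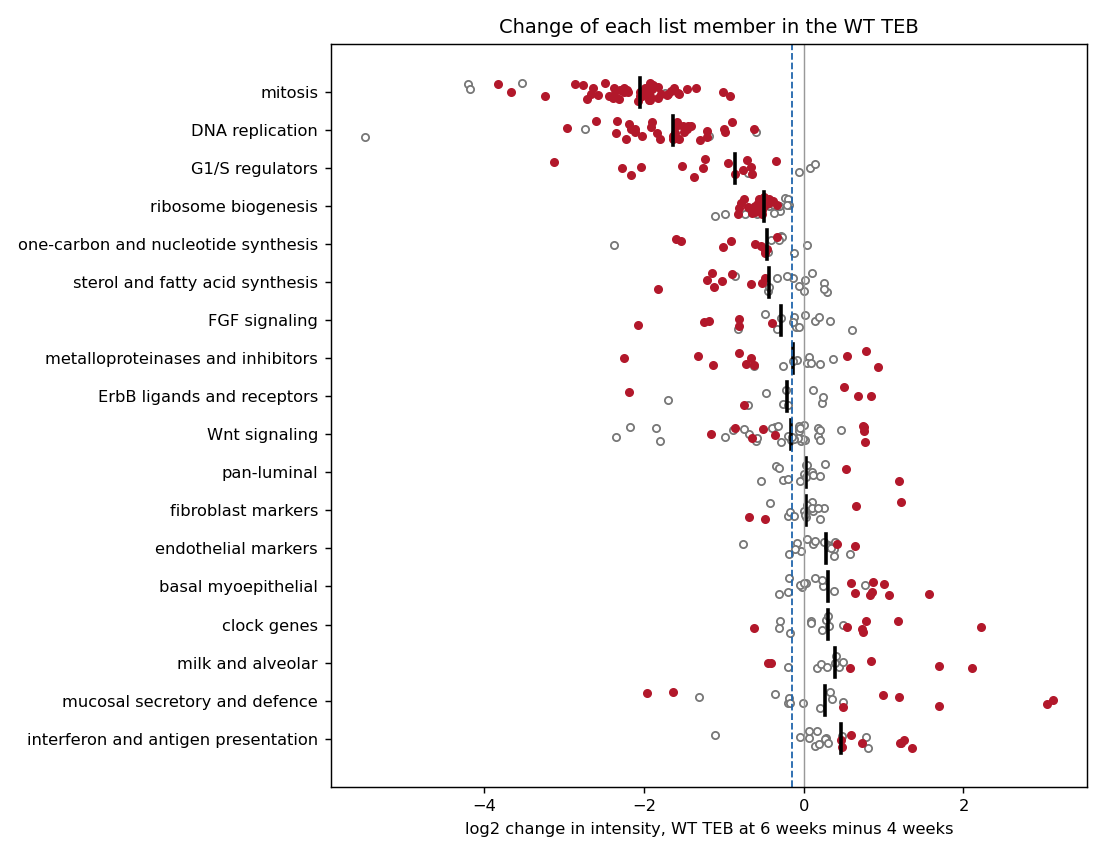
Log2 change in intensity from 4 to 6 weeks (horizontal axis) of each tested member of the gene lists on the vertical axis, with filled circles for members past the limma test, open circles for the others, a black bar at each list's median and a dashed line at the median of all genes tested (-0.15). The mitosis and DNA replication lists lay farthest to the left, with medians of -2.05 and -1.63, and the medians of the interferon and antigen presentation (0.46) and basal myoepithelial (0.31) lists lay to the right.

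A part of the basal myoepithelial genes rose. Of 20 tested, 8 rose and none fell, with a median of 0.31, against 4.06% of all genes, and 10 rose without WT TEB 6 weeks replicate 1, with a median of 0.38. Oxtr, the oxytocin receptor through which myoepithelial cells contract, was at 933, 548 and 500.3 at 4 weeks and at 1616, 1656 and 2487 at 6 weeks. All 6-week arrays lay above the highest 4-week array, and the change was 1.57 (SE 0.25, adjusted p = 0.0051). Krt14, a basal keratin, was at 1054, 643 and 630.0 against 1365, 1538 and 1647, a change of 1.01 (SE 0.18, adjusted p = 0.00812). Cnn1, a calponin of smooth muscle, was at 1856, 994 and 849.6 against 2319.6, 2711 and 2319, a change of 1.07 (SE 0.25, adjusted p = 0.0207). In all 3 genes replicate 1 was the highest of the 4-week arrays. Krt17 and Krt5, keratins, rose by 0.87 (SE 0.20) and 0.59, and Mylk, the myosin light chain kinase, by 0.85. Not all basal markers moved, since Acta2 differed by -0.02 (SE 0.14, adjusted p = 0.94) and Trp63, the transcription factor p63 of basal cells, by -0.31 (SE 0.14, adjusted p = 0.152). The summed intensity of the 20 genes was 22805 to 29869 at 4 weeks and 29431 to 33809 at 6 weeks. The ages overlapped by this measure through WT TEB 6 weeks replicate 1 (29431) alone. The other 6-week arrays, at 32263 and 33809, lay above all 4-week arrays. The count was 3 without WT TEB 4 weeks replicate 2, 4 without replicate 3 of that age and 5 without WT TEB 6 weeks replicate 2. Of 18 factors described in basal stem cells, 3 fell, against 11.4% of all genes. Without WT TEB 6 weeks replicate 1 the number was also 3, and 2 fell in both fits. Id4, an inhibitor of helix-loop-helix factors, was at 1913, 1642 and 1922 against 508, 700.1 and 514, a change of -1.68 (SE 0.19, adjusted p = 0.00174), and Cd44, a hyaluronan receptor, fell by 0.58 (SE 0.10).

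Few luminal markers passed the test. Of 16 pan-luminal genes, 2 rose and none fell, with a median of 0.02, and 3 rose without WT TEB 6 weeks replicate 1. Their summed intensity was 46960 to 54531 at 4 weeks and 42021 to 51868 at 6 weeks. Muc1, a membrane mucin of the apical surface, was at 389, 308 and 251 at 4 weeks and at 426, 824 and 1031 at 6 weeks, a change of 1.20 (SE 0.29, adjusted p = 0.0245). The doubtful array was the lowest of its group, and the change was 1.57 (SE 0.17) without it. Gata3, the transcription factor of luminal cells, differed by 0.12 (SE 0.13, adjusted p = 0.532). Of 11 hormone-sensing luminal genes, Wnt4, a Wnt ligand induced by progesterone, was the single one to pass in both fits, at 781, 634 and 656 against 1141, 1156 and 1187, a change of 0.76 (SE 0.12, adjusted p = 0.00448). Neither Esr1, the estrogen receptor (0.30, SE 0.12, adjusted p = 0.128), nor Pgr, the progesterone receptor (0.43, SE 0.23, adjusted p = 0.244), passed the test.

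Of 14 milk and alveolar genes, 4 rose and 2 fell, and without WT TEB 6 weeks replicate 1, 4 rose and none fell. Ltf, which encodes the iron-binding milk protein lactoferrin, was at 442, 444 and 298 at 4 weeks and at 1324, 1134 and 1313 at 6 weeks, a change of 1.69 (SE 0.16, adjusted p = 0.000994). Btn1a1, a protein of the milk fat globule membrane, was at 93.4, 143 and 61.8 against 322, 355 and 586, a change of 2.11 (SE 0.31, adjusted p = 0.00383). Kit, a receptor of luminal progenitors, rose by 0.84 (SE 0.11). The last was Xdh, xanthine dehydrogenase of the milk fat globule. Of the 2 that fell, Csn3, a casein, changed by -0.41 (SE 0.09). After quantile normalization 8 of the 14 rose. Of 18 mucosal secretory and defence genes, 6 rose and 2 fell, and 8 rose and 1 fell without that array. Muc16, a membrane mucin, had intensities of 16.2, 16.7 and 7.71 at 4 weeks and of 55.9, 84.3 and 292 at 6 weeks, a change of 3.12 (SE 0.61, adjusted p = 0.0114). Dmbt1, a secreted scavenger protein, was at 309, 692 and 997 against 5577, 2858 and 7535, a change of 3.05 (SE 0.77, adjusted p = 0.029). Both genes rose with wide spread inside each age. Lbp, the lipopolysaccharide-binding protein, went the other way, at 1849.8, 1744 and 1758 against 362, 407 and 651 (-1.96, SE 0.22, adjusted p = 0.00167). The number that rose was 4 without WT TEB 4 weeks replicate 1, 3 without replicate 2, 2 without replicate 3 and 4 without WT TEB 6 weeks replicate 3.

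A part of the interferon and antigen presentation genes rose in the TEB at 6 weeks. Of 21 tested, 8 rose and none fell, with a median of 0.46, and without WT TEB 6 weeks replicate 1 the count was the same and the median 0.53. H2-Aa and H2-Ab1, the chains of a class II molecule that presents peptides, were the most even. H2-Aa was at 373, 338 and 346 at 4 weeks and at 895, 892 and 737 at 6 weeks, a change of 1.25 (SE 0.12, adjusted p = 0.00109). H2-Ab1 was at 429.6, 371 and 384 against 774, 1105 and 876, a change of 1.20 (SE 0.14, adjusted p = 0.00205). Cd74, the invariant chain of class II, rose by 1.22 (SE 0.23), Tap2, a peptide transporter of class I, by 0.73 (SE 0.12), and Irf1, an interferon-induced transcription factor, by 0.46 (SE 0.12). Among the 15 genes with the largest increases were 5 that interferon is known to induce but that the list does not hold. Gbp2b, a guanylate-binding protein, was at 41.2, 99.7 and 96 against 620.4, 718 and 256, a change of 2.73 (SE 0.46, adjusted p = 0.00661). Cxcl9, a chemokine that attracts T cells, was at 366, 312 and 303 against 1692, 2293 and 717, a change of 2.11 (SE 0.35, adjusted p = 0.00633). Replicate 3 was the lowest 6-week array for both, and this also held for Gbp4 (348 on replicate 3, against 948 and 1749), Gbp5 and Iigp1. Values of single Gbp genes are uncertain, since near-identical copies can share probes. Class II genes are also expressed by macrophages and other immune cells. Of 14 macrophage markers 1 rose, Mpeg1, by 0.70 (SE 0.17), or 2 without that array, with summed intensities of 6611 to 7427 at 4 weeks and 6622 to 8273 at 6 weeks, and of 12 lymphocyte markers none passed in either fit, with sums of 1477 to 1776 and 959 to 1639. The part of such cells in the rise was not tested. The count of 8 was 4 without WT TEB 4 weeks replicate 2 or 3 and 4 without WT TEB 6 weeks replicate 2. The interferon-stimulated response element, searched as GAAA, any 2 bases and GAAA on both strands, was found in 6 of the 17 available windows of the list (35.3%), against 3.04% of all promoters and 2.43% of those of the genes tested. Its letters do not contain the elements above. The window of Gbp2b, chr3:142594597-142594846 on the plus strand (RefSeq, GRCm38.p6), is shown with its match on the opposite strand in capitals.
Gbp2b: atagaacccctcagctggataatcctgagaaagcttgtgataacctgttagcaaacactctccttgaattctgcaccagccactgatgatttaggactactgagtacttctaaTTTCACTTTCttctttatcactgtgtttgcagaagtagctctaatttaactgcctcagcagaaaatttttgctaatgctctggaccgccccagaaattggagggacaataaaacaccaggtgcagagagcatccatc

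Of the genes that rose, Ache had the largest fitted change. It encodes acetylcholinesterase, which breaks down acetylcholine. Its intensity was 36.3, 50.4 and 23.5 at 4 weeks and 577, 628 and 940.4 at 6 weeks, a change of 4.32 (SE 0.56, adjusted p = 0.00268). Its 4-week values lay below the intensity of 200 used as the filter, where the size of a change is uncertain, and the change was 4.17 with all values under 32 set to 32. The same limit holds for Muc16, Gbp2b, Gbp5, Btn1a1, Slc5a7, Clca1 and Tph1. All 6-week arrays, the doubtful one included, were far above every 4-week array. Ufsp1, a protease of the UFM1 pathway and the next protein-coding gene to Ache on mouse chromosome 5 in RefSeq, was at 253, 270.0 and 226 against 839, 738 and 914, a change of 1.73 (SE 0.34, adjusted p = 0.0114). Slc5a7, the choline transporter, was at 134, 16.4 and 96.2 against 388, 352 and 627, a change of 2.89 (SE 0.69, adjusted p = 0.0239). Other large increases were those of Muc13, a membrane mucin (2.62, SE 0.62), Clca1, a secreted protein of mucous cells (2.22, SE 0.36), Tph1, the first enzyme of serotonin synthesis (2.18, SE 0.57), and Fgb, the fibrinogen beta chain (2.15, SE 0.50). Apart from genes of the cell cycle, chromosomes and histones, the 15 largest decreases held Sprr1a, a cornified envelope protein, at 1591, 2199.9 and 2725 against 380.0, 534 and 261, a change of -2.50 (SE 0.53, adjusted p = 0.0156).

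Clock genes also differed by age. Of 17 tested, 6 rose and 1 fell, with a median of 0.30, and 8 rose and 1 fell without WT TEB 6 weeks replicate 1. Nr1d1, the repressor REV-ERB alpha, was at 308, 418 and 386 at 4 weeks and at 1515, 1414 and 2345 at 6 weeks, a change of 2.22 (SE 0.19, adjusted p = 0.000947). Dbp, a transcription factor with a strong daily rhythm, was at 331, 469 and 429 against 724, 776 and 1371, a change of 1.18 (SE 0.23, adjusted p = 0.0103). Both genes were highest on replicate 3, with no overlap between ages. Nr1d2, the close relative of Nr1d1, rose by 0.78 (SE 0.10) and Per1, a period gene, by 0.75 (SE 0.19). Cry1, a repressor of the same loop, was at 397, 424 and 416 against 258, 276 and 268 and fell by 0.63 (SE 0.12). The sources used here do not state the time of day at which glands were taken. The number of clock genes that rose was 4 without any 1 of the 4-week arrays and 4 without WT TEB 6 weeks replicate 3.

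In the ErbB family of growth factor ligands and receptors, 3 of 14 genes rose and 2 fell, and without WT TEB 6 weeks replicate 1, 3 rose and 3 fell. Among the ligands, Nrg1, neuregulin 1, was at 837, 766 and 934 at 4 weeks and at 152, 262 and 159 at 6 weeks, a change of -2.19 (SE 0.38, adjusted p = 0.00751). Tgfa, a ligand of the EGF receptor, fell by 0.75 (SE 0.18), whereas Nrg4, another neuregulin, was at 942, 1069 and 1059 against 1671, 1654 and 2219 and rose by 0.84 (SE 0.12, adjusted p = 0.00367). Of the receptors, Erbb3 was at 2172, 2688 and 1841 against 3394, 3784 and 3432, a change of 0.68 (SE 0.13, adjusted p = 0.0103), and Erbb2 rose by 0.51 (SE 0.13). In FGF signalling, 6 of 19 genes fell and none rose, and 6 fell and 1 rose without WT TEB 6 weeks replicate 1. Among the 6, Etv4, an ETS transcription factor, was at 792, 773 and 919.8 against 168, 238 and 188, a change of -2.07 (SE 0.16, adjusted p = 0.000759). Its relative Etv5 was at 1274, 1142 and 1246 against 484, 586 and 475, a change of -1.25 (SE 0.12), and Spry4 and Dusp6, inhibitors of the pathway, fell by 1.18 (SE 0.17) and 0.82 (SE 0.16). The receptor Fgfr2 was at 4631, 3917 and 4030.4 against 4103, 4229 and 4335, with a difference of 0.01 (SE 0.08, adjusted p = 0.924), and the ages overlapped.

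**Figure D3:**
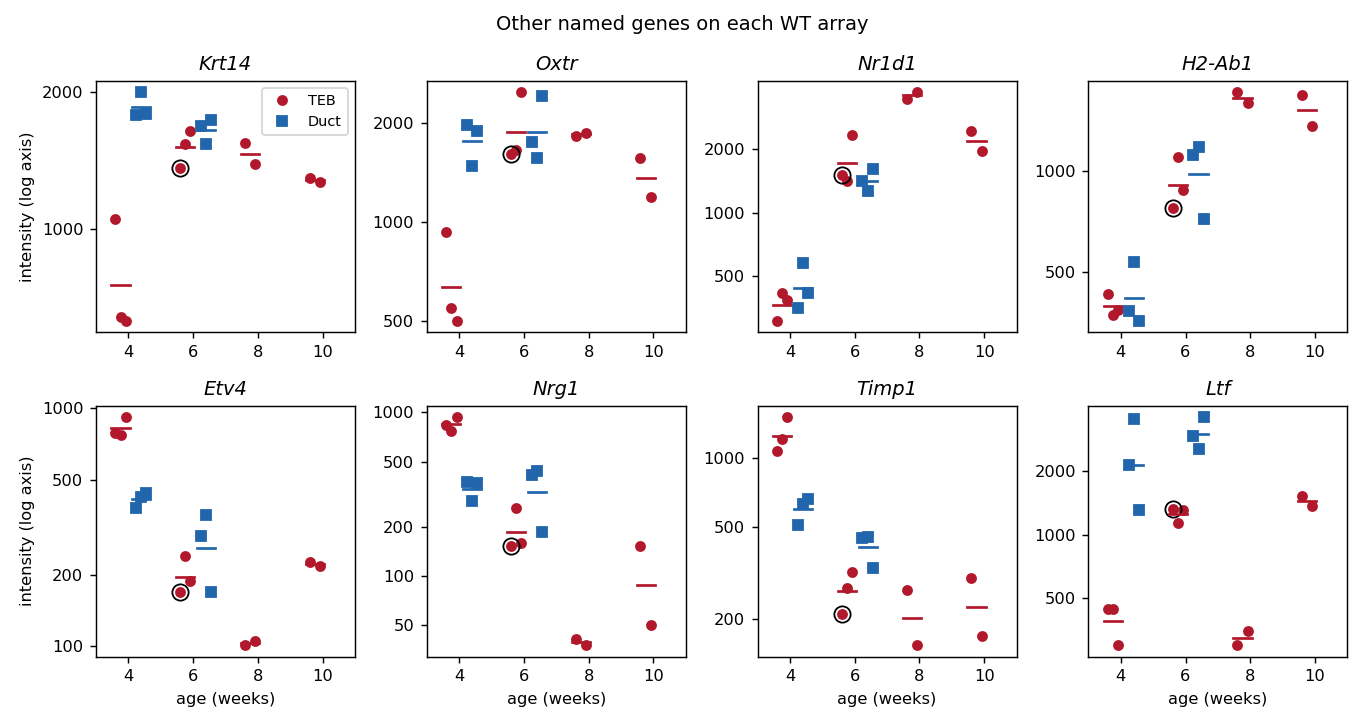
Intensity (log axis) of 8 other genes on each WT array against age in weeks, drawn as in the plot of cell cycle genes, with TEB arrays as circles, duct arrays as squares, lines at geometric means and WT TEB 6 weeks replicate 1 ringed. Krt14, Oxtr, Nr1d1, H2-Ab1 and Ltf rose and Etv4, Nrg1 and Timp1 fell in the TEB, with no overlap between the 3 arrays of 4 weeks and the 3 of 6 weeks, and the ringed array lay near the others of its age. Duct arrays are drawn at 4 and 6 weeks only.

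Of 41 genes of Wnt signalling, 4 rose and 5 fell, and without WT TEB 6 weeks replicate 1, 4 rose and 6 fell. Over all genes 4.06% rose and 11.4% fell. The numbers that fell among the Wnt, the TGF-beta and BMP and the axon guidance genes lay near that share. Sfrp1, a secreted Wnt antagonist, was at 1401, 1185 and 996 at 4 weeks and at 454, 661 and 491 at 6 weeks, a change of -1.16 (SE 0.16, adjusted p = 0.00316). Wnt5a, a ligand known to restrain ductal growth, was at 1765, 1418 and 2051 against 1058, 1092 and 747, a change of -0.86 (SE 0.17, adjusted p = 0.0113). Tcf7l2, a transcription factor of the pathway, rose by 0.75 (SE 0.10). In Notch signalling 1 of 19 genes fell, Nrarp, a feedback inhibitor of the pathway (-1.09, SE 0.25), and 5 rose without WT TEB 6 weeks replicate 1. Of 25 genes of TGF-beta and BMP signalling 1 rose and 2 fell (2 and 2 without that array), among them Bmp7, a ligand, which fell by 0.93 (SE 0.17). Of 17 genes of growth hormone and IGF signalling, Igfbp5, an IGF-binding protein, was the single one to pass in both fits, at 2494, 1973 and 1819.8 against 4442, 4582 and 6425, a change of 1.29 (SE 0.16, adjusted p = 0.00224). Among 22 axon guidance and branching cues 2 rose and 3 fell (2 and 4 without that array), and Sema3b, a semaphorin, was at 959.7, 981 and 1325 against 331, 351 and 329.9, a change of -1.67 (SE 0.15, adjusted p = 0.000947). Of 12 imprinted growth genes 2 rose and 3 fell (1 and 4 without that array), with Mest at -2.14 (SE 0.33) and Zim1 at 1.25 (SE 0.26).

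Proteases of the matrix moved in both directions. Of 19 metalloproteinases and their inhibitors, 7 fell and 3 rose, and without WT TEB 6 weeks replicate 1, 6 fell and 3 rose. Timp1, an inhibitor of metalloproteinases, was at 1069, 1214 and 1507 at 4 weeks and at 209.9, 273 and 318 at 6 weeks, a change of -2.25 (SE 0.28, adjusted p = 0.00224). Mmp14, a membrane-anchored metalloproteinase, was at 3132, 3247 and 3572 against 1986, 2167 and 2123, a change of -0.66 (SE 0.09, adjusted p = 0.00329). Adamts1, a protease of proteoglycans, fell by 1.33 (SE 0.22). Mmp2, a gelatinase, rose instead, at 2818, 1753 and 1749 against 3291, 3839 and 3433 (0.78, SE 0.18, adjusted p = 0.0206). The number that fell was 4 without WT TEB 4 weeks replicate 1 or 2 and 3 without replicate 3. Of 21 basement membrane genes 3 fell, near the share of all genes that fell (11.4%), and 2 fell and 1 rose without WT TEB 6 weeks replicate 1. Tnc, the matrix protein tenascin C, was at 1116, 1652 and 1968 against 519, 561 and 492 (-1.55, SE 0.29, adjusted p = 0.00937).

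Of 10 Clims and their partners, 1 fell, and 1 fell and 1 rose without WT TEB 6 weeks replicate 1. Lmo4, a LIM-only partner, was at 2902, 2602 and 2976 at 4 weeks and at 1514, 1772 and 1844 at 6 weeks, a change of -0.73 (SE 0.10, adjusted p = 0.00298). Ldb1, which encodes Clim2, differed by 0.20 (SE 0.13, adjusted p = 0.316), and Ldb2, which encodes Clim1, was at 304, 281 and 269 against 313, 361 and 506, with a difference of 0.44 (SE 0.17, adjusted p = 0.119) that passed without WT TEB 6 weeks replicate 1 (0.59, SE 0.16, adjusted p = 0.0326). Among 26 immediate-early and heat shock genes 2 rose and 4 fell (4 and 5 without that array), with Egr2, a zinc finger transcription factor, at -1.44 (SE 0.14). Of 16 apoptosis genes 3 rose in each fit, 2 of them in both. Of 19 epidermal differentiation genes 2 fell, or 3 without that array, Sprr1a among them. Across all genes tested 11.4% fell, and the falling counts of the Clim, immediate-early and epidermal lists were near that share.

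Markers of the surrounding cells were present at both ages. Of 18 endothelial markers 2 rose, Emcn by 0.64 (SE 0.14) and Pecam1 by 0.41 (SE 0.09), and 6 rose without WT TEB 6 weeks replicate 1, with summed intensities of 8840 to 9503 at 4 weeks and 9484 to 12636 at 6 weeks. The number was 8 after either scaling, and none rose without WT TEB 4 weeks replicate 2 and 1 without replicate 3. Of 19 fibroblast markers 2 rose and 2 fell, also without WT TEB 6 weeks replicate 1, and 5 rose and 2 fell after quantile normalization, with Clec3b at 1.22 (SE 0.16) and Lum, the proteoglycan lumican, at -0.69 (SE 0.14), and with sums of 43786 to 48432 and 41877 to 47184. None of 16 adipocyte markers passed, 1 rose without WT TEB 6 weeks replicate 1 and 4 rose after quantile normalization, with sums of 72052 to 80951 and 60560 to 80248. Among 11 markers of skeletal muscle and 3 of nerve 1 each fell, the former no longer without WT TEB 6 weeks replicate 1, and none passed among 6 of mast cells and eosinophils and 1 of red blood cells. Sums of the fibroblast, adipocyte, macrophage and lymphocyte markers overlapped between ages. The lowest 6-week sum of the endothelial markers (9484) lay just below their highest 4-week sum (9503). It was that of WT TEB 6 weeks replicate 1, and the other 6-week sums were 10134 and 12636. The part of stromal cells in the changes above was not tested.

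Whether a change belonged to the TEB was asked by setting it against the change of the WT duct between the same ages, as the difference of both changes. TEB and duct arrays of the same age and replicate number were taken as 1 mouse and entered as a random block. The labels do not state this pairing, which rests on the number, and the deviations of same-numbered arrays correlated at 0.547 to 0.652 at 4 weeks but at -0.083, 0.333 and 0.175 at 6 weeks. The difference passed at 232 genes (1.74%) with a lower change in the TEB and at 58 (0.434%) with a higher one. Without WT TEB 6 weeks replicate 1, 860 (6.44%) and 586 (4.39%) passed. By itself the duct had 219 genes that fell (1.64%) and 166 that rose (1.24%), and none of the mitosis, DNA replication or G1/S genes was among those that fell, with medians of -0.42, -0.46 and -0.24. The change was lower in the TEB than in the duct for 18 of 51 mitosis genes and 16 of 37 replication genes, and for 42 and 29 without that array. With no such block, the difference passed for none of the mitosis genes and for 2 of the replication genes, and within each same-numbered pair it passed for 31 and 14. The number of genes that differed in either direction was 290. It was 20 with no block, 62 without WT TEB 4 weeks replicate 1, 36 without replicate 2, 1 without replicate 3 and 151 without WT TEB 6 weeks replicate 3. Bub1 in the duct was at 502, 397 and 523 at 4 weeks and at 517, 524 and 169 at 6 weeks, and the difference between structures was -2.47 (SE 0.51, adjusted p = 0.0352). Duct replicate 3 at 6 weeks stood below the others, as it did for the median of the mitosis genes relative to the 4-week TEB (-2.08, against -0.98 and -0.83). Mcm6 in the duct was at 1513, 1319 and 1553 against 1256, 1368 and 1115, a difference of -1.22 between structures (SE 0.14, adjusted p = 0.0103), and this passed also with no block (adjusted p = 0.0269). At 6 weeks the TEB arrays thus lay below the duct arrays of the same age for Mcm6, and for Bub1 only duct replicate 3 lay within the TEB range.

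A part of the basal genes differed in the other direction. In the duct, 1 of the 20 basal myoepithelial genes fell and none rose, and the change was higher in the TEB for 6 of them, and for 11 without WT TEB 6 weeks replicate 1. None passed with no block or, with all arrays, within same-numbered pairs. Markers of stromal cells moved with them. Without that array the change was also higher in the TEB for 10 of 19 fibroblast markers, 8 of 18 endothelial markers and 7 of 16 adipocyte markers, with medians of 0.47, 0.55 and 0.45 against 0.64 for the basal genes, and with all arrays for 2, 1 and none of them. Their part in the difference was not tested. Oxtr in the duct was at 1974, 1479 and 1899.9 at 4 weeks and at 1757, 1565 and 2428 at 6 weeks, and the difference between structures was 1.48 (SE 0.30, adjusted p = 0.0344). The TEB values at 6 weeks lay within or close to the range of the duct at either age. Krt14 in the duct was at 1784, 1996 and 1792 against 1687, 1537 and 1735, with a difference of 1.17 (SE 0.22, adjusted p = 0.0271). Of the ErbB, FGF and matrix genes, the change was lower in the TEB for Nrg1 (-2.11, SE 0.37, adjusted p = 0.0243), Etv4 (-1.40, SE 0.29, adjusted p = 0.0358), Timp1 (-1.70, SE 0.24, adjusted p = 0.0152) and Mmp14 (-0.49, SE 0.09, adjusted p = 0.0243), and higher for Mmp2 (1.08, SE 0.20, adjusted p = 0.0254). Wnt5a was at 845, 534 and 964 in the duct at 4 weeks and at 1499, 1579.8 and 990.0 at 6 weeks, opposite to its fall in the TEB, with a difference of -1.67 (SE 0.29, adjusted p = 0.0243). Of these 6 genes, Timp1 was the single one to pass with no block (adjusted p = 0.0403).

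For the interferon genes no difference between structures was detected, since 6 of 21 rose in the duct, against 1.24% of all genes, and the difference passed for none, with or without that array. H2-Ab1 was at 381, 536 and 357 in the duct at 4 weeks and at 1118, 1178 and 717 at 6 weeks, and the difference was -0.03 (SE 0.27, adjusted p = 0.965). Nr1d1 likewise was higher in the 6-week duct (1414, 1265 and 1605 against 354, 581 and 419), with a difference of 0.53 (SE 0.26, adjusted p = 0.313), as was Ache (559.8, 649 and 555 against 27.3, 114 and 114), with a difference of 1.27 (SE 0.63, adjusted p = 0.329). A p that misses the threshold does not show that both structures changed alike.

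**Figure D4:**
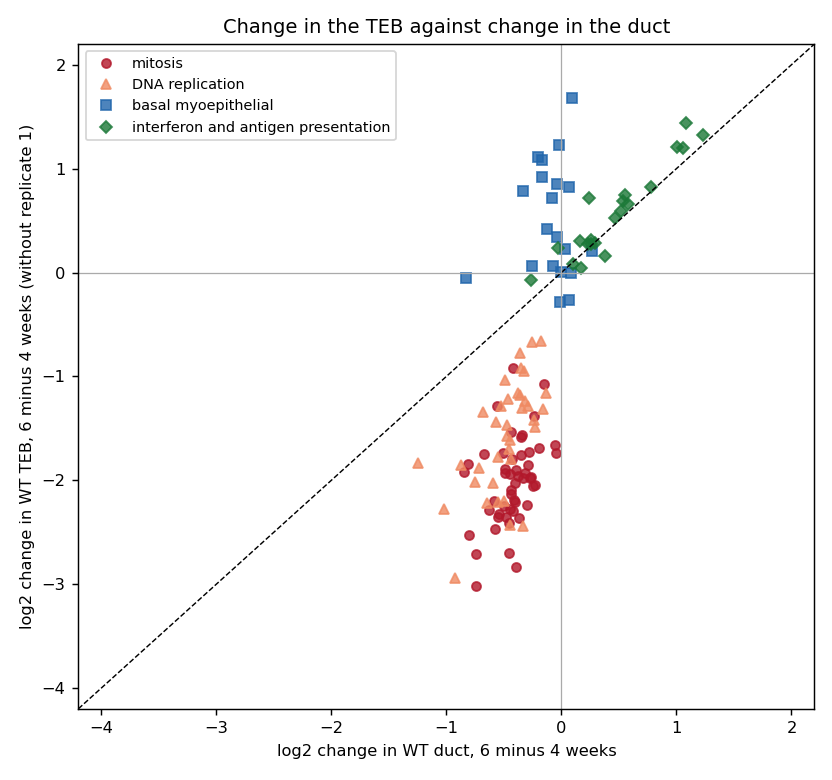
Log2 change from 4 to 6 weeks in the WT TEB, without replicate 1 of 6 weeks (vertical axis), against that in the WT duct (horizontal axis) for each tested member of 4 gene lists, with a dashed line where both are equal. The mitosis and DNA replication genes lay below the line, with median duct changes of -0.42 and -0.46, most basal myoepithelial genes lay above it, and the interferon and antigen presentation genes lay along it.

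In the DN-Clim TEB, 606 genes (4.54%) fell between the same ages, among them 20 of the 51 mitosis genes and 18 of the 37 replication genes, with medians of -1.12 and -0.98. In the other direction 294 of the 13362 genes rose. They held 2 of the 20 basal myoepithelial and 1 of the 21 interferon genes, lists whose medians were 0.39 and -0.01. In the WT TEB these medians were 0.31 and 0.46, and the difference between genotypes passed for none of either list. The change differed between WT and DN-Clim TEBs at 2 of the 13362 genes (0.015%), Ufsp1 and Glycam1. The count at an unadjusted p under 0.05 was 1330. Ufsp1 in the DN-Clim TEB was at 256, 236 and 253 at 4 weeks and at 194 and 194 at 6 weeks, all 6-week values below the 4-week values, and the difference between genotypes was 2.09 (SE 0.18, adjusted p = 0.00246). Its neighbour Ache was at 70.3, 26.8 and 28.9 against 75.9 and 12.6, and its difference of 4.61 (SE 1.01) did not pass (adjusted p = 0.377). At 6 weeks Glycam1, a mucin-like milk protein, was at 162 to 179 in WT TEBs and at 14883 and 4655 in DN-Clim TEBs. The difference between its changes from 4 to 6 weeks in both genotypes was -5.78 (SE 0.51, adjusted p = 0.00246). Without WT TEB 6 weeks replicate 2, 8 genes differed. Few arrays limit the precision of this comparison.

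By their titles, WT TEBs were also measured at 8 and 10 weeks, with 2 arrays each. They served to place the 6-week level and were not tested. The study describes branching as typically complete by week 10, when TEBs are absent. What the TEB label covers at the later ages can thus not be told here. These arrays also entered the spread of the main fit, which called 2066 genes, against 2052 with the 6 arrays alone. Relative to the 4-week TEB, the median of the mitosis genes was -2.08, -1.50 and -2.66 on the 6-week arrays, -2.56 and -2.89 at 8 weeks and -2.26 and -3.52 at 10 weeks. Replicate 3 of 6 weeks lay within the range of the later ages, and the other 6-week arrays lay above it. The WT duct, taken by its titles, was at -2.82 and -2.67 at 8 weeks and at -2.61 and -3.61 at 10 weeks. By this measure the later ducts thus lay near the later TEBs. Duct labels at these ages conflict in part. In the TEB, Bub1 was at 77.3 and 60 at 8 weeks and at 128 and 35.4 at 10 weeks. Myc, which overlapped at 4 and 6 weeks, was at 934 and 782 at 8 weeks, below all arrays of both earlier ages. The basal median was 0.14, 0.37 and 0.50 at 6 weeks and 0.10 on both arrays at 8 weeks, below the duct at 4 weeks (0.75, 0.62 and 0.71). H2-Ab1 was at 1719 and 1594 at 8 weeks, above all 6-week arrays. Ltf did not keep its 6-week level at 8 weeks (299 and 347) but was at 1535 and 1375 at 10 weeks. Mest was back at 1078 and 1114 at 8 weeks, above all 4-week arrays.

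**Figure D5:**
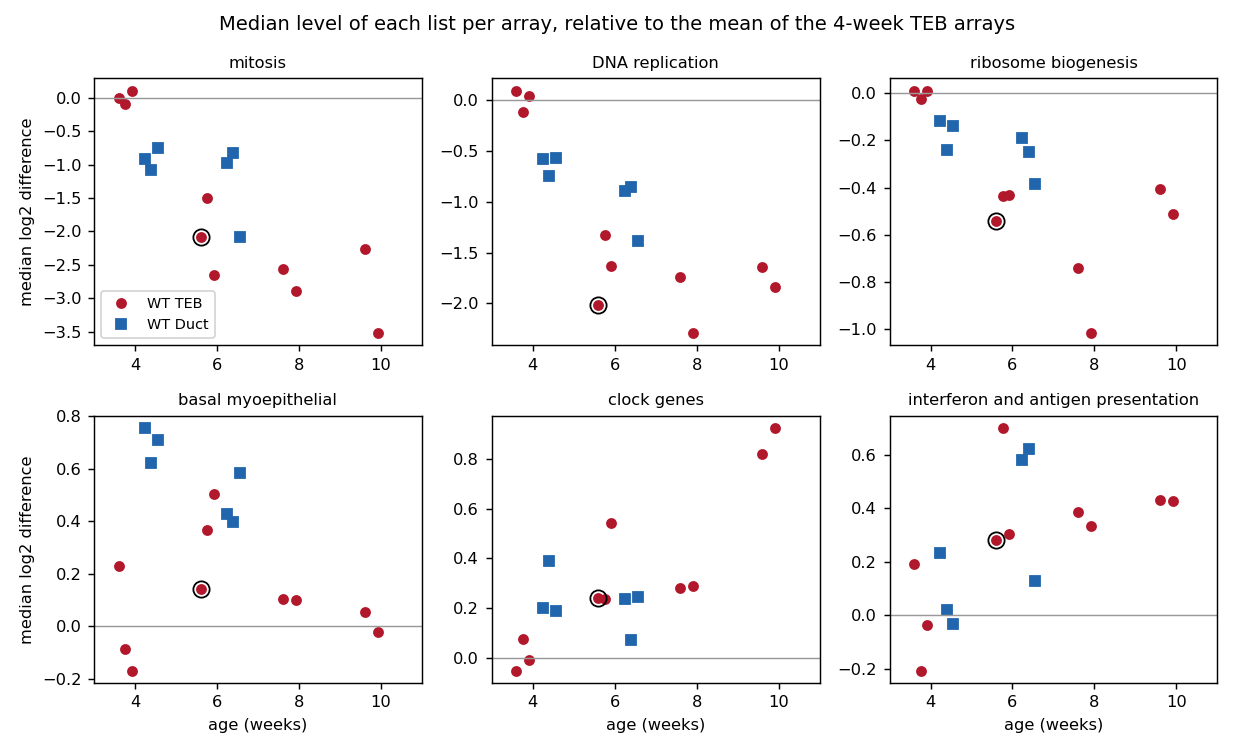
Median log2 difference of 6 gene lists on each WT array from the mean of the 4-week TEB arrays (vertical axis) against age in weeks (horizontal axis), with TEB arrays as circles, duct arrays as squares and WT TEB 6 weeks replicate 1 ringed. The mitosis median of the TEB fell to between -2.66 and -1.50 at 6 weeks and stayed between -3.52 and -2.26 at 8 and 10 weeks, while the 4-week duct lay between -1.08 and -0.75. Duct arrays are drawn at 4 and 6 weeks only.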

How the data were processed

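RNA from laser capture microdissected TEBs and ducts and from sorted cells was hybridised to Affymetrix Mouse Gene 1.0 ST arrays. The authors deposited linear intensities, 1 for each probe set, computed with the PLIER algorithm (version and annotation not given in the sources used here), 1 column per sample. Of 35557 probe sets, 21789 had 1 gene symbol in the platform annotation, 1621 had several and 12147 had none, and only those with 1 symbol were named. Following the study, probe sets under 200 on every one of the 42 laser capture arrays were dropped. The brightest remaining probe set on average stood for its gene, which left 13362 genes. Values under 1 were set to 1 before log2.

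The test was limma (version 3.58.1, R 4.3.3) with a variance trend on all 10 WT TEB arrays, with 1 mean per age, and with Benjamini-Hochberg adjustment over all genes and a threshold of 0.05. It was repeated without WT TEB 6 weeks replicate 1. The difference between structures was fitted on 12 arrays with a random block (duplicateCorrelation) for arrays of the same age and replicate number, taken as 1 mouse, which the labels do not state, and that between genotypes on 11 TEB arrays. The fits were tested on simulated data. The number of arrays limits the precision. Alternatives were quantile normalization, a common mean and variance, no filter, a floor of 32, array weights, no variance trend, the 6 arrays alone, a replicate block and leaving out each array. The gene lists and members were chosen with earlier results of these data known. Named genes were the 15 largest increases and decreases passing with and without that array, up to 5 called members per list, and the genes the study names. Promoter windows came from RefSeq (GRCm38.p6). Sorted cells and the remaining groups were not used here.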

Additional observations from a re-analysis of the deposited data

Results flagged for a closer look

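The change from 4 to 6 weeks differed between the WT TEB and the WT duct at 290 genes and between WT and DN-Clim TEBs at 2, by limma's test of the difference itself. The 5 genes with the lowest p and a higher change in the TEB were Htra3, a serine protease (difference of 0.96), Tppp3, a tubulin-binding protein (1.03), Pla2g7, a phospholipase (0.84), 4933439C10Rik (0.62) and Lims2, an adaptor of integrin adhesions (0.74). In the other direction they were Crispld2, a secreted protein (-1.44), S100a6, a calcium-binding protein (-1.04), Mcm6 (-1.22), Rbm8a2 (-0.91) and Rbm8a (-0.67). Rbm8a and Rbm8a2 are near-identical copies whose probes can share signal. Crispld2 was at 2292, 2055 and 2409 in the TEB at 4 weeks and at 1028, 1065 and 1077 at 6 weeks, and in the duct at 1119, 1055 and 1115 and then at 1474, 1460.0 and 1273. Its difference passed also with no block for same-numbered arrays (adjusted p = 0.000503). Lims2 did not pass in the TEB itself (0.11, SE 0.09, adjusted p = 0.39). Between genotypes, the difference was 2.09 for Ufsp1 and -5.78 for Glycam1, whose 6-week arrays were 162 to 179 in WT and 4655 and 14883 in DN-Clim. The causes of these differences were not tested.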

How the results depend on the processing

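Of 188 genes followed through the alternatives, 160 passed the test. Over their 3948 results under the alternatives, none changed direction, 3273 stayed on the same side of the threshold, 580 lost it and 95 gained it. Of the 160, between 85 (without WT TEB 4 weeks replicate 3) and 154 (without WT TEB 6 weeks replicate 1) passed with 1 array left out, and 83 passed in all 6 such fits. The 2066 called genes became 5455 with array weights and 597 to 2312 with 1 array left out. Without WT TEB 6 weeks replicate 1, the 2312 became 1503, 1334 and 895 with WT TEB 4 weeks replicate 1, 2 or 3 left out as well, and 663 and 2327 with WT TEB 6 weeks replicate 3 or 2 left out as well. The 251 called list members became 407 with array weights and 123 to 282 with 1 array left out, or 121 to 265 with a further array left out beside WT TEB 6 weeks replicate 1 (160 when that was WT TEB 4 weeks replicate 3). The 290 genes that differed between TEB and duct became 20 with no block for same-numbered arrays, 28 with no block and without that array, 1121 after quantile normalization, 568 at a common mean and variance, 1914 and 1870 with these scalings and without that array, 203 within same-numbered pairs, 769 within such pairs and without that array, 1 to 1446 with 1 array left out (1 without WT TEB 4 weeks replicate 3), and, without WT TEB 6 weeks replicate 1, 1052, 1123 and 498 with WT TEB 4 weeks replicate 1, 2 or 3 left out as well and 1756 and 433 with WT TEB 6 weeks replicate 2 or 3. The 2 genes that differed between genotypes became 4 at a common mean and variance and 2 to 8 with 1 array left out. The causes were not tested.

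Replicate numbers at 4 and 6 weeks named different mice, and same-numbered arrays shared only a number, with correlations of their deviations of -0.054, -0.063 and 0.053. With a replicate block 1458 genes were called, and 137 of the 160 followed genes passed. For TEB and duct, same-numbered arrays correlated at 0.652, 0.547 and 0.575 at 4 weeks and at -0.083, 0.333 and 0.175 at 6 weeks. The difference with a fixed replicate block was called at 1 gene. Genes dimmer than 200 on all laser capture arrays were beyond the test, and without that filter 1543 of 19938 genes passed.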
